A study of Equus caballus with 9 samples.

Results

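Tenocytes derived from horse embryonic stem cells (ESCs) were compared with tenocytes grown from adult horse tendon, on the messenger RNA of 3 lines on each side. These 6 libraries were taken by their labelled cell type from a series of 9, whose other 3 libraries come from fetal tenocytes of gestation days 319, 320 and 321. Of the 21689 Ensembl gene identifiers in the deposited table, 13105 passed the filter on low counts and were tested. Fetal libraries had no part in the filter, the scaling or the test of this main comparison. They are given as levels beside the genes present in 1 group only, whose printed levels are scaled over all 9 libraries, and beside the identifiers shown.

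Every culture was horse (Equus caballus) and was labelled tenocyte. The 3 adult lines came from horses aged 2 to 6 years, were at passages 5, 6 and 4 (adult replicates 1, 2 and 3) and grew in high-glucose DMEM with 10% fetal bovine serum. The 3 ESC-derived lines were at passages 22, 18 and 18 (ESC-derived replicates 1, 2 and 3). As ESCs they had been kept on inactivated mouse embryonic fibroblasts with leukaemia inhibitory factor (LIF). For differentiation they were grown without feeders or LIF for 14 days in DMEM/F12-based medium that contained TGF-β3 at 20 ng/ml and 15% serum. The groups thus differ at once in the origin of the cells, in passage number, in medium and serum, in TGF-β3 and in earlier contact with mouse cells, and these cannot be told apart. The fetal lines were at passages 6, 3 and 7 (fetal replicates 1, 2 and 3), in 10% serum, with no TGF-β3 in the labels. Where fetal levels lie near adult ones, origin and culture cannot be told apart either. The labels give no strain, sex or genotype, and no sorting of the differentiated cells.

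Tenocytes are the fibroblast-like cells of tendon, and they make and maintain its collagen-rich matrix. Embryonic stem cells are pluripotent, and TGF-β3 is a growth factor that takes part in tendon development and is used to direct stem cells towards tendon cells in culture. Cells from adult tendon and cells differentiated from ESCs can therefore carry the same label while differing in developmental stage and culture history. In bulk RNA of this kind, fewer cells of a type and less RNA per cell cannot be told apart.

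Gene names are not paired with the identifiers in the deposited table, and 0 identifiers matched a symbol in the RefSeq gene table used here. The labelled cell type was therefore not checked against tendon markers, and markers of pluripotent, epithelial, neural or other cells were not read. Genes are described by the classes they form, and 4 are given by identifier. Library totals ran from 20292588 to 23767643 counts, and 12529 ± 151 genes in ESC-derived and 12411 ± 241 in adult libraries held 10 counts or more (SD, n = 3 each; exact permutation test, two-sided, p = 0.6).

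The first question was how many genes differed between the groups and by how much. Of the genes tested, 7274 (55.5%) were called at a Benjamini-Hochberg adjusted p under 0.05 by edgeR's quasi-likelihood test. The ESC-derived level was the higher one for 3641 genes (27.8%) and the lower one for 3633 (27.7%). The even split depends on the scaling. With total counts in place of TMM, which scales libraries on the bulk of genes, 4681 genes were higher and 2690 lower, 63.5% and 36.5% of the calls, and the median log2 fold change of all genes tested moved from 0.01 to 0.34.

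Most of the called genes differed by more than 2-fold. At least 2-fold differences made up 5485 of the calls (41.9% of genes tested), of which 2842 were higher and 2643 lower. At 4-fold or more there were 1669 higher and 1642 lower genes (25.3% of genes tested together), and at 16-fold or more 882 and 995 (14.3%). A further step to 64-fold still left 496 higher and 564 lower genes. The remaining 1789 calls, 24.6%, were of less than 2-fold. The median log2 fold change was 1.81 among higher and -1.72 among lower genes, and both medians were the same when genes at 0 counts in a group were set to a bound based on 3 counts over that group.

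**Figure D1:**
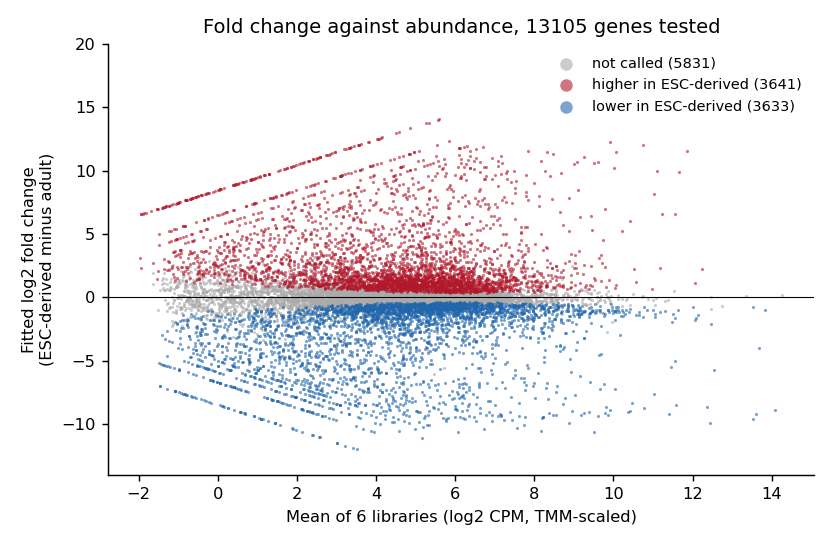
Each point is a gene tested, placed by its mean over the 6 libraries (log2 of TMM-scaled counts scaled to a fixed library total, CPM) and its fitted log2 fold change, positive where ESC-derived cultures were higher. The 3641 higher and 3633 lower genes reach large folds on both sides, and the slanting rows of points at the edges are genes with 0 or few counts in a group, whose fitted fold follows from the other group's level.

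The 3 libraries of one group lay wholly above or below the 3 of the other for 8752 genes (66.8%). If every order of the 6 libraries were equally likely, such separation would have a probability of 0.1 for a gene. Of the called genes 7229 had such separated libraries and 45 did not. Conversely, 1523 genes had separated libraries and were not called. Calls and separation rest on the same contrast and libraries, so their overlap is no further result.

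Genes that were not called form a class of their own, since a missed threshold does not show that levels were alike. For 3244 of the 5831 genes not called (55.6%), the 95% interval of the fold change lay within 2-fold in both directions. Their levels were moderate, with a median of 34.1 CPM, and 2852 of them averaged 10 CPM or more. These genes held 28.4% ± 0.643 of the counts in ESC-derived and 23.0% ± 1.18 in adult libraries (SD, n = 3 each). For the other 2587 the interval reached past 2-fold, and for 728 past 4-fold. Those 2587 genes had a median of 7.06 CPM, lower than the class above.

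The direction of the calls differed between abundance classes, with no steady order below 100 CPM. Under 1 CPM, 202 of 668 genes (30.2%) were higher in ESC-derived cultures and 167 (25.0%) lower. At 1 to 10 CPM, 880 of 3479 (25.3%) were higher and 957 (27.5%) lower. Among the 7239 genes that averaged 10 to 100 CPM, 2068 (28.6%) were higher and 1872 (25.9%) lower. Of the 1619 genes at 100 to 1000 CPM, 472 (29.2%) were higher and 578 (35.7%) lower. The 100 genes at 1000 CPM or more had 19 higher and 59 lower members, so 78.0% of this class was called against 55.5% of all genes. With total counts alone these 2 numbers were 21 and 51, and with genes that hold a fractional count left out they were 12 and 30, because the class itself then loses members. With changes beyond 2-fold tested they were 14 and 27. Leaving out 1 library at a time gave 16 to 19 higher and 50 to 60 lower genes. The classes were set on the mean of the same 6 libraries that are compared. A gene can therefore enter the top class through a very high level in 1 group only. The direction and the share of calls in that class are in part set by this.

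The share of large folds was highest under 1 CPM, lowest at 10 to 100 CPM, and rose again in the classes above. At least 4-fold calls made up 47.6% of the 668 genes under 1 CPM and 36.1% of the 3479 genes at 1 to 10 CPM. They made up 18.6% at 10 to 100 CPM, 22.1% at 100 to 1000 CPM and 33.0% at 1000 CPM or more. A gene with a low mean can pass the filter through the group where it is high, so the shares in the lowest classes are in part set by the filter. The highest classes can likewise take in genes that are very high in 1 group only.

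**Figure D2:**
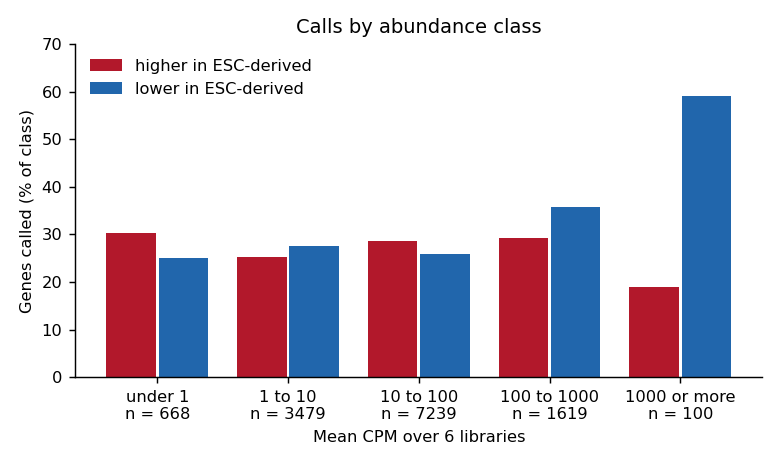
Bars give the share of genes in each class of mean CPM over the 6 libraries that was called higher (red) or lower (blue) in ESC-derived cultures, with the number of genes tested under each class. The shares are close to each other up to 100 CPM, and at 1000 CPM or more 19 genes were higher and 59 lower.

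The second question was how many genes carried the difference in counts. Adult libraries drew their counts from fewer genes than ESC-derived ones. The most abundant genes that together held 50% of a library numbered 569, 487 and 634 in ESC-derived replicates 1, 2 and 3, and 193, 227 and 332 in adult replicates 1, 2 and 3. Every ESC-derived library was above every adult one. The means were 563 ± 73.7 and 251 ± 72.5 genes (SD, n = 3 each; exact permutation test, two-sided, p = 0.1, the smallest that 3 against 3 allows, or 0.15 adjusted by Benjamini-Hochberg over the 3 measures of a library compared).

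Called genes held most of the counts. The higher genes took 42.0%, 42.5% and 41.0% of the ESC-derived libraries and 7.42%, 8.01% and 10.2% of the adult ones, in the order of their replicates. The lower genes took 20.0%, 20.0% and 21.0% of the ESC-derived and 62.8%, 61.9% and 56.8% of the adult libraries. These shares were chosen by the same test, so their separation is given as a description. Adult replicate 3 was the adult library nearest to the ESC-derived ones on both.

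Genes with the largest folds held a larger summed share of counts on the adult side. A few very abundant genes can raise such a sum, and levels per gene were not compared between these classes. The 995 genes lower by at least 16-fold held 27.9%, 22.2% and 20.6% of adult replicates 1, 2 and 3 and 0.387% ± 0.0396 of ESC-derived libraries (SD, n = 3). On the other side, the 882 genes higher by at least 16-fold held 13.9%, 15.3% and 11.9% of ESC-derived replicates 1, 2 and 3 and 0.113% ± 0.0476 of adult libraries (SD, n = 3). Thus a similar number of genes accounted for 23.6% ± 3.85 of adult counts and 13.7% ± 1.70 of ESC-derived counts (SD, n = 3 each).

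Genes were also ranked by their difference in share of the library, with no scaling factor and no test. Summed over all genes with a larger mean share in one group, the excess was 41.6% of a library, equal on both sides by construction. On the adult side 38 genes held 50% of the excess, and on the ESC-derived side 266 genes did. Shares of a library have a fixed total, so a few very abundant adult genes lower the shares of the other genes. The difference between 38 and 266 therefore follows in part from the concentration of adult counts given above and is no separate result. The 10 adult-side genes with the largest difference held 15.4% ± 3.31 of adult and 1.57% ± 0.119 of ESC-derived counts (SD, n = 3 each), 33.4% of the excess, and 10 of the 10 were called. The 10 ESC-derived-side genes held 7.91% ± 0.964 of ESC-derived and 2.06% ± 0.491 of adult counts (SD, n = 3 each), 14.1% of the excess, and 9 were called. The ranking used the same contrast and libraries as the test, so these calls are no further result. Of all genes tested 55.5% were called. The 100 leading genes held 62.7% of the adult-side and 36.6% of the ESC-derived-side excess. With 1 library left out at a time, 31 to 45 genes held 50% on the adult side and 221 to 304 on the ESC-derived side.

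**Figure D3:**
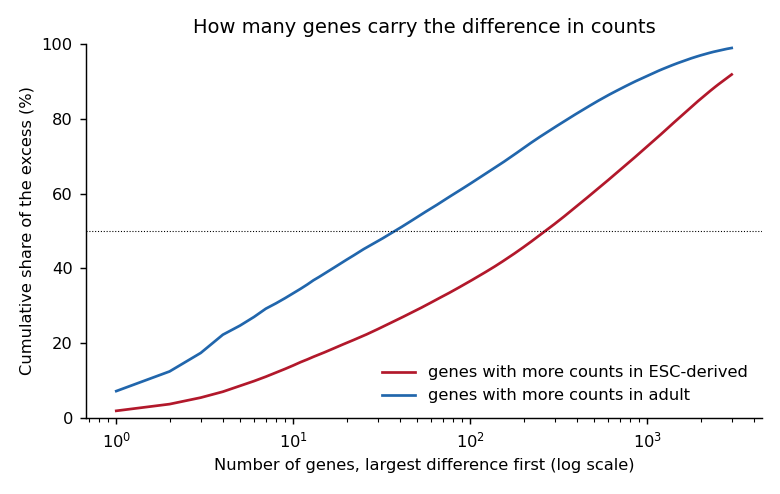
Curves give the cumulative share of the excess of counts against the number of genes, taken from the largest difference in mean library share down, for genes with more counts in adult (blue) and in ESC-derived cultures (red). The dotted line marks 50%, which the adult curve reaches at 38 genes and the ESC-derived curve at 266.

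The third question was whether the difference between groups was larger than that between lines. Between an ESC-derived and an adult library, 24.2% to 29.0% of tested genes were at least 4-fold apart, over 9 pairs. Between 2 ESC-derived libraries the share was 1.98% to 4.11%, and between 2 adult libraries 2.42% to 3.58%. The share of counts held by different genes, taken as the sum of absolute differences in library share divided by 2, was 38.5% to 44.8% between groups. It was 9.28% to 14.8% between ESC-derived and 12.6% to 15.5% between adult lines. The ranges between and within groups did not overlap for either measure. The filter keeps a gene that passes its limit in all libraries of a single group. It drops one that passes in fewer libraries than a group holds, so the 4-fold shares are in part set by the filter. The share of counts used all deposited identifiers.

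The adult lines were not equally far from the ESC-derived ones. Adult replicate 3 was at least 4-fold apart from ESC-derived replicates 1, 2 and 3 in 24.2%, 25.0% and 24.5% of genes. For adult replicate 1 the shares were 28.0%, 28.0% and 28.8%, and for adult replicate 2 they were 28.0%, 27.3% and 29.0%. The counts held by different genes were 38.5% to 39.4% for adult replicate 3 and 43.8% to 44.8% for the other two. Without adult replicate 3, edgeR called 7483 of 13460 genes, 3903 higher and 3580 lower.

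**Figure D4:**
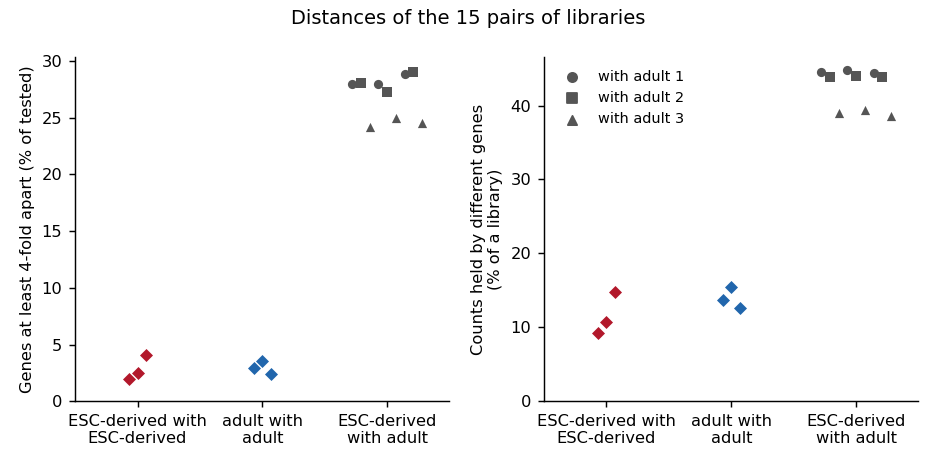
Each point is a pair of libraries: left, the share of tested genes at least 4-fold apart on log2 CPM, and right, the share of counts held by different genes. Pairs within groups (diamonds) reach at most 4.11% and 15.5%, pairs between groups lie at 24.2% and 38.5% or above, and the pairs with adult replicate 3 (triangles) are the lowest of these.

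Part of the large differences held in every pairing of lines. Over the 9 pairings of an ESC-derived with an adult line, 1100 genes were at least 4-fold higher and 1184 at least 4-fold lower in each one, 17.4% of genes tested together. In at least 1 pairing 2736 genes were 4-fold higher and 2387 lower, and 72 genes were 4-fold higher in some pairings and 4-fold lower in others. These numbers too are over genes that passed the filter and are in part set by it.

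The spread between lines was measured within each group. The median SD of log2 CPM over 3 lines was 0.25 in ESC-derived and 0.29 in adult cultures, and 57.8% of genes had the larger SD in adult cultures. The coefficient of biological variation that edgeR estimates across genes was 0.316 in ESC-derived and 0.347 in adult cultures. A range of at least 4-fold between the lines of a group was found for 740 genes in ESC-derived and 785 in adult cultures. Of these, 450 of the 740 and 485 of the 785 were called between the groups, beside 7274 of all 13105 genes tested (55.5%).

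Single lines differed in which genes they had. Among the 6 libraries, 38 genes had 50 counts or more in adult replicate 1 and 3 or fewer in each other library. The other lines had 0 to 6 such genes. ESC-derived replicate 3 lacked 10 genes that the other 5 libraries had at these limits, where the other lines lacked 0 to 3. Relative to the other 2 lines of its group, 23 genes were at least 16-fold higher in adult replicate 1, and 20 were at least 16-fold lower in ESC-derived replicate 3. Without adult replicate 1 edgeR called 6472 of 13493 genes, and without ESC-derived replicate 3 it called 6655 of 13478.

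The last class holds genes present in one group and not in the other, defined as 50 counts or more in each library of the one and 3 or fewer in each library of the other. By this rule 233 genes, 1.07% of all identifiers, were present in the ESC-derived but not the adult group, and 200 genes, 0.922%, in the adult but not the ESC-derived group. The rule uses the same contrast as the test, so that all of them were called is no further result. Of the 233, 66 were at 0 counts in the 3 adult libraries, and of the 200, 17 were at 0 in the 3 ESC-derived libraries. ESC-derived genes of this kind were the more abundant, with a median of 17.2 CPM, 22 genes at 100 CPM or more and a highest mean of 449 CPM. The adult ones had a median of 10.8 CPM and 0 genes at 100 CPM or more, the highest being 79.0 CPM. Within the lines that held them, 37 of the 233 and 24 of the 200 ranged by at least 4-fold. Of all 13105 genes tested, 740 in ESC-derived and 785 in adult cultures did so, measured there on log2 CPM with a prior count.

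Genes shared by all 3 lines outnumbered those of single lines. Among genes at 3 counts or fewer in the adult libraries, 233 reached 50 counts in 3 ESC-derived lines, 70 in 2 and 91 in 1. Among those at 3 or fewer in the ESC-derived libraries, 200 reached 50 counts in 3 adult lines, 76 in 2 and 144 in 1.

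The fetal libraries took no part in choosing these genes. The 233 genes together held 1.02%, 0.986% and 0.967% of ESC-derived replicates 1, 2 and 3 and 0.000623%, 0.000599% and 0.000858% of adult replicates 1, 2 and 3. In fetal replicates 1, 2 and 3 they held 0.00256%, 0.00336% and 0.00224%. Each fetal value was above each adult one and far below each ESC-derived one. The rule capped adult counts at 3 and asked for 50 in ESC-derived libraries, with no limit on fetal ones. That order is therefore in part set by the rule. At 50 counts or more, 0 of the 233 were found in fetal replicates 1 and 2 and 1 in fetal replicate 3. Of the 233, 141 were at 3 counts or fewer in every fetal library and 92 exceeded 3 in at least 1. These 92 had a median of 0.180 CPM in fetal and 44.5 CPM in ESC-derived cultures, and 66 of them stayed under 10 counts in every fetal library.

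Most of the 200 adult genes were found in the fetal libraries as well. They held 0.284%, 0.283% and 0.334% of adult replicates 1, 2 and 3, and 0.319%, 0.318% and 0.296% of fetal replicates 1, 2 and 3. In ESC-derived replicates 1, 2 and 3 they held 0.00101%, 0.000908% and 0.000779%. Fetal and adult shares lay in the same range. At 50 counts or more, 190, 189 and 180 of the 200 were found in fetal replicates 1, 2 and 3, and 173 in all of them. None of the 200 was at 3 counts or fewer in every fetal library.

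**Figure D5:**
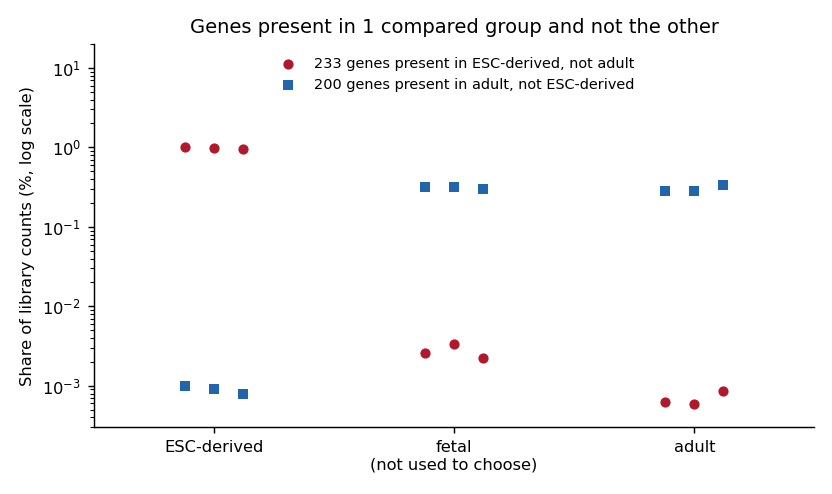
Points give the share of each library's counts (percent, log scale) held by the 233 genes present in the ESC-derived but not the adult group (red circles) and by the 200 present in the adult but not the ESC-derived group (blue squares). ESC-derived and adult values are separated by the rule itself. In the fetal libraries, which the rule did not use, the first class is at 0.00224% to 0.00336% and the second at 0.296% to 0.319%.

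By fitted fold change, with 10 CPM or more in the higher group and no overlap, 2 identifiers led each side, and each was at 0 counts in the 3 libraries of the other group. ENSECAG00000022594 was at 86.5, 93.9 and 110 CPM in ESC-derived replicates 1, 2 and 3, or 96.8 ± 11.9 (SD, n = 3), and at 0 in each adult library. It was at least 1941-fold higher when 3 counts over the adult libraries are taken as the floor (edgeR adjusted p = 2.17e-05). In fetal replicates 1, 2 and 3 it had 10, 7 and 2 counts, against 2148, 2223 and 2668 in the ESC-derived ones. Its counts were steady between ESC-derived lines.

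ENSECAG00000011388 was at 122, 62.8 and 98.0 CPM in ESC-derived replicates 1, 2 and 3, or 94.4 ± 29.9 (SD, n = 3), at least 1904-fold above the adult floor (edgeR adjusted p = 8.89e-05). It had 2 counts in fetal replicate 1 and 0 in the other two. ESC-derived replicate 2 was the lowest of the 3 lines.

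ENSECAG00000029663 was at 26.7, 22.5 and 19.4 CPM in adult replicates 1, 2 and 3, or 22.9 ± 3.67 (SD, n = 3), and at least 553-fold lower in ESC-derived cultures by the same floor (edgeR adjusted p = 6.37e-05). Its fetal counts of 578, 458 and 357 lay beside adult counts of 531, 433 and 409. Fetal and adult libraries overlapped for this gene.

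ENSECAG00000007097 was at 40.0, 6.20 and 18.5 CPM in adult replicates 1, 2 and 3, or 21.6 ± 17.1 (SD, n = 3), and at least 526-fold lower in ESC-derived cultures (edgeR adjusted p = 0.00211). Its fetal counts of 30, 130 and 145 compare with 796, 119 and 390 in adult replicates 1, 2 and 3. The adult lines differed widely for this gene, and its bound fell to 306-fold without adult replicate 1. For the other 3 identifiers the lowest bounds with 1 library left out were 1261-fold for ENSECAG00000022594 and 1236-fold for ENSECAG00000011388, both without adult replicate 3, and 365-fold for ENSECAG00000029663 without ESC-derived replicate 1. In these 3 cases the omitted library had 0 counts at that gene, so the floor of 3 counts was divided by a smaller total.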

How the data were processed

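RNA was sequenced from stranded mRNA libraries as pairs of 100 bases, per the labels' protocols. The values the authors deposited are estimated counts of reads per gene, some of them fractional. FastQC, Salmon and R 3.5.2 were used, per the submitters' processing notes. The version and settings of Salmon, the build and the annotation were not given in the sources used here. Because Salmon divides reads among matching transcripts, near-identical genes may share counts. ENSECAG00000022594 and ENSECAG00000029663 hold fractional counts. Of the 2968 tested genes with a fractional count 56.9% were called, and of the others 55.1%.

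Counts of the 6 libraries were rounded and tested with edgeR 4.0.16 in R 4.3.3 (TMM scaling, filterByExpr with a minimum count of 10, glmQLFit and glmQLFTest), a gene being called at an adjusted p under 0.05. The procedure was tested on simulated data in which only a small share of genes was changed. That setting does not check the scaling or the calls where a large share of genes differs, as here. CPM values were TMM-scaled over the compared libraries (over all 9 for the gene classes set beside fetal levels), and log2 CPM used a prior count of 2. Standard errors behind the 95% intervals came from the F statistic. Shares of libraries used unscaled totals. TMM factors were 1.05 to 1.20 in ESC-derived and 0.839 to 0.985 in adult libraries. A fold against a group at 0 was set against 3 counts over that group. This floor is a convention and covers counting error only.

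The labels number no replicates, and numbers follow the order of deposition. The series' design text describes the 3 libraries of a group as separate lines. Between libraries of the same group, chi-square over degrees of freedom was 65.9 to 168.6, far above sampling noise. Whether lines came from separate animals is not stated, so p-values measure the spread between these libraries.

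Alternatives were RLE scaling, total counts, DESeq2 1.42.0, limma 3.58.1 with voom, 2 other filters, a test beyond 2-fold, all 9 libraries in the fit, omission of genes with a fractional count, of the 100 most abundant genes per library, and of each library. The identifiers shown are the 2 highest and 2 lowest in fold change among called genes with no overlap and 10 CPM in the higher group, the rule for the case without symbols. The 30 gene lists prepared were not run (0 of 30), because no identifier matched a symbol. The comparison, its classes and its lists were chosen with earlier results of these data known.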

Additional observations from a re-analysis of the deposited data

How the results depend on the processing

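The 7274 calls stayed within 1.5 times under 15 of the 16 alternatives. The exception was the test for changes beyond 2-fold, which asks for more and gave 3776 calls, 1897 higher and 1879 lower. Fits without 1 library gave 5897 to 7483 calls, lowest without ESC-derived replicate 1, with 2881 to 3903 higher and 3016 to 3580 lower. Of the calls, 7222 were also made with RLE scaling, 7239 with DESeq2 (8244 calls), 7169 with limma-voom (7522 calls) and 6331 with total counts alone (7371 calls). All 9 libraries in the fit gave 7843 calls, of which 7147 were shared. More lower than higher genes were called without a filter, with all 9 libraries, without genes with fractional counts, without the most abundant genes, and without ESC-derived replicate 1, 2 or 3 or adult replicate 2. With total counts alone, the one alternative that does not centre the libraries on the bulk of genes, 4681 genes were higher and 2690 lower, so the share of calls in each direction changes with the scaling. The genes with an interval within 2-fold numbered 2601 to 3342 over the alternatives run on them. Genes present in one group and not the other depended on the limits. At 100 counts against 3 the adult class fell to 129. At 50 counts against 0 the ESC-derived class fell to 66 and the adult class to 17. At 20 counts against 3 they were 322 and 287. Without 1 library they were 242 to 297 and 213 to 245, but leaving out a library removes a condition, so these numbers could not fall. The 4 identifiers kept their direction and an adjusted p under 0.05 in every alternative that tested them, with a highest of 0.00732. The 2 with fractional counts could not be tested where such genes were omitted. Leaving out libraries for the genes that hold 50% of the excess was added after the data were seen. No paired analysis was possible because the labels give no replicate numbers that link the groups. Gene lists were not run under any alternative. Depth limits the folds of genes close to 0 counts, which are given as bounds.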
